A study of Mus musculus with 16 samples.

Results

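The genes described here are the subunits of the receptors for glutamate and for GABA (gamma-aminobutyric acid) that the MoGene 1.0 microarray measured in the mouse cochlea. A gene belonged to the set when a probeset with a single gene symbol in the platform table carried a symbol beginning with Gria, Grik, Grin or Grm and a digit, or with Gabr. *Gabra6* and *Grm4*, which are counted below with the markers of cerebellar granule cells, were left out of the set. This gave 36 genes of 19937 with such a probeset, on 38 of 34760 probesets in all, with a single probeset for every gene but *Gabrb2*, for which the brightest of 3 on average was taken. The set holds 4 AMPA, 5 kainate and 6 NMDA receptor subunits, 6 metabotropic glutamate receptors, and 15 GABA-A receptor subunits.

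The RNA came from the microdissected organ of Corti (OC) at postnatal day 5 (P5-OC) and from the cochlea at day 18 (P18-cochlea) of Tg1MDW/1MDW mice and wild-type (WT) mice of the FVB/NCrl strain. Tg1MDW/1MDW mice, written Tg/Tg in the sample labels, are homozygous for a transgene in which a GFAP promoter, active in glia and in supporting cells, drives *Mir183*, *Mir96* and *Mir182* (the miR-183 cluster), and they represent a single transgenic line. WT mice carry no transgene. There were 5 arrays of each genotype at P5 and 3 of each at P18, 16 in all, with values given as log2 signal. The age and the dissected tissue change together between P5-OC and P18-cochlea, so that their effects cannot be told apart, and in RNA of whole tissue fewer cells of a type and less RNA per cell cannot be told apart either.

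Glutamate carries the signal from inner hair cells to spiral ganglion neurons, which receive it mainly through AMPA receptors. AMPA, kainate and NMDA receptors are ion channels built of several subunits, and metabotropic receptors signal through G proteins. GABA-A receptors are chloride channels of 5 subunits, and GABA is one of the transmitters of the olivocochlear fibres that run from the brainstem to the cochlea.

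The mature microRNAs of the transgene are shown because they are what it was made to express. Their sequences come from RefSeq (GRCm38.p6, chr6, minus strand, chr6:30165962-30165986, chr6:30169506-30169528 and chr6:30169711-30169732 in the order given), and capitals mark the seed, bases 2 to 8 from the 5′ end.
mmu-miR-182-5p: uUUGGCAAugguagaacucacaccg
mmu-miR-96-5p: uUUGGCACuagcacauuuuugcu
mmu-miR-183-5p: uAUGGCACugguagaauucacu
No 2 of the 3 seeds are the same. The seed of miR-96 shares 6 of 7 bases with that of miR-182 and 6 with that of miR-183, and those of miR-182 and miR-183 share 5. Sites for these seeds in the receptor mRNAs were not analysed here.

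The transgene elements *Mir182*, *Mir96*, *Mir183* and *Prm1* separated Tg1MDW/1MDW from WT arrays at both ages, with log2 changes of 2.50 to 4.09. Between arrays of the same age the correlation was 0.973 to 0.992 at P5 and 0.990 to 0.995 at P18. The mean signal of Y-linked genes was high on 4 of 5 WT arrays and 1 of 5 Tg1MDW/1MDW arrays at P5 and low on the others, and lay in between on every P18 array. Genotype and sex, as read from these genes, thus largely went together at P5 and cannot be fully told apart there. Differences within each Y-linked level are given only for *Gabra5* and *Grik2*, and not for the X-linked *Gria3*, *Gabre*, *Gabra3* and *Gabrq*. The labels call the samples of a group biological replicates without saying whether an array holds 1 animal or a pool, so p-values measure the spread between these samples. Hair cell markers, from *Pou4f3* to *Otof*, were above the lowest array's lower quartile (a log2 signal of 4.54, used here as a line for dim probesets) in all 4 groups.

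Of the 36 receptor genes, the GABA-A subunit gene *Gabra5* was called higher in Tg1MDW/1MDW at both ages and the AMPA subunit gene *Gria1* was called lower at P18. A gene was called at an adjusted p under 0.05, with limma's moderated test and Benjamini-Hochberg adjustment over all probesets. At P5, 1 of the 36 was called, beside 0.610% of all probesets, and at P18, 2 were called, beside 0.443%. The median log2 change of the set was 0.00 at P5 and -0.05 at P18, against -0.01 and -0.02 over all probesets. Among the genes that were not called, 95% intervals reached from -0.71 to 1.02 at P5 and from -0.93 to 0.94 at P18, so changes within those limits remain possible for single genes.

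*Gabra5* encodes the alpha-5 subunit of GABA-A receptors, known from hippocampal neurons, where it forms mostly extrasynaptic channels. In P18-cochlea its log2 signals were 6.08, 6.03 and 6.22 in Tg1MDW/1MDW and 5.30, 5.21 and 5.14 in WT. Every Tg1MDW/1MDW array was above every WT array, and the signal was 1.86-fold higher (log2 change 0.89, standard error 0.118, adjusted p = 0.00102). In P5-OC the log2 signals were 5.67, 5.39, 5.50, 5.41 and 5.31 in Tg1MDW/1MDW and 5.14, 4.71, 5.06, 5.15 and 4.98 in WT. The groups again did not overlap, and the signal was 1.36-fold higher (log2 change 0.45, standard error 0.0914, adjusted p = 0.0351).

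The P18 call of *Gabra5* held in the 26 alternatives that tested it, with adjusted p from 6.94e-06 to 0.0111. The remaining alternative, omission of the dimmest 50% of probesets, dropped *Gabra5* and so could not test it. The P5 call held in 10 of 26, with adjusted p from 0.0120 to 0.248. It was lost in 12 of the 16 fits that left out a single array, at an adjusted p of 0.050 to 0.105: without any of the 6 P18 arrays, without P5 Tg1MDW/1MDW replicate 1, 2 or 4, and without P5 WT replicate 2, 3 or 5. It was also lost when the fit included the Y-linked level, where the log2 change was 0.47 (adjusted p = 0.248). Among arrays with a high Y-linked level the difference was 0.70 (1 Tg1MDW/1MDW array against 4 WT), and among those with a low level 0.26 (4 against 1). The P5 difference was 0.60 in replicates 1 and 2 and 0.34 in replicates 3 to 5. The change at P18 was larger than that at P5 by 0.45 on the log2 scale, but that difference was not called (adjusted p = 0.213).

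The window upstream of *Gabra5* is printed because the gene was the single member called at both ages, and that of *Gabrp*, described further below, because it rose most with age. Both were read 5′ to 3′ on the minus strand from the RefSeq promoter table (GRCm38.p6), as the 250 bases before the start listed for the gene, chr7:57510060-57510309 for *Gabra5* and chr11:33578958-33579207 for *Gabrp*, with CG dinucleotides in capitals.
Gabra5: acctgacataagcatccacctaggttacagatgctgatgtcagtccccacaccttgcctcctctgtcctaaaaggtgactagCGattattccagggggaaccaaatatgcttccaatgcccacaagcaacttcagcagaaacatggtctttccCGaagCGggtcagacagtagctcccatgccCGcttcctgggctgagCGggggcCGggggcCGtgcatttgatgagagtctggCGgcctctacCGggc
Gabrp: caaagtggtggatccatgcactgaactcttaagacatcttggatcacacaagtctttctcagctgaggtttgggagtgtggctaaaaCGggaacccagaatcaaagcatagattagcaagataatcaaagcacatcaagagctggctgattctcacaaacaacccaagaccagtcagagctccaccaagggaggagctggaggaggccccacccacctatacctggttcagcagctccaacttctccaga
The *Gabra5* window held 9 CG dinucleotides and the *Gabrp* window 1, where the median of 32851 windows of the same length was 6. Fewer than 9 were found in 59.7% of all windows and fewer than 1 in 7.87%. The table lists a start for 28 of the 36 receptor genes.

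In the RefSeq gene order *Gabra5* lies next to the gamma subunit gene *Gabrg3*. The measured neighbours on one side were *Gabrg3*, *Oca2* and *Herc2*, and on the other *Atp10a*, *Ndn* and *Magel2*. None of these 6 was called at either age. *Gabrg3* had a log2 change of 0.02 at P5 (adjusted p = 0.944) and -0.15 at P18 (adjusted p = 0.891).

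*Gria1* encodes the GluA1 subunit of AMPA receptors, which carry fast excitatory transmission. In P18-cochlea its log2 signals were 5.53, 5.60 and 5.53 in Tg1MDW/1MDW and 6.02, 6.37 and 6.16 in WT. All 3 Tg1MDW/1MDW arrays were below the WT arrays, and the signal fell by 0.63 on the log2 scale (1.55-fold, standard error 0.109, adjusted p = 0.0119). In P5-OC the log2 signals were 6.94, 6.98, 6.90, 6.73 and 6.83 in Tg1MDW/1MDW and 6.79, 7.18, 7.01, 6.98 and 7.12 in WT. These groups overlapped, with a log2 change of -0.14 (adjusted p = 0.404). The P18 call held in 23 of 27 alternatives and was lost without P18 Tg1MDW/1MDW replicate 1 (adjusted p = 0.0714) or 3 (0.0719) and without P18 WT replicate 2 (0.0818) or 3 (0.0521). The change at P18 minus that at P5 was -0.49 (adjusted p = 0.144).

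*Grik2*, for the GluK2 kainate receptor subunit, had the second pair of P5 groups that did not overlap. Its log2 signals in P5-OC were 7.61, 7.75, 8.11, 7.62 and 7.83 in Tg1MDW/1MDW and 6.49, 6.99, 7.21, 7.31 and 7.52 in WT. The WT arrays spread over about 1 log2 unit, and the log2 change of 0.68 (standard error 0.157) was not called (adjusted p = 0.0675). In P18-cochlea the log2 signals were 6.30, 6.60 and 6.62 in Tg1MDW/1MDW and 5.92, 6.0 and 6.07 in WT, without overlap, and the log2 change of 0.51 was not called either (adjusted p = 0.457). At P5 it was called in 8 of 27 alternatives, with adjusted p from 0.0174 to 0.303 over all of them, and at P18 in 1 of 27. With the replicate number as a block, 2 receptor genes, *Gabra5* and *Grik2*, were called higher at P5, beside 0.0690% of all probesets. With array weights, 3 were called higher at P18, *Gabra5*, *Grik2* and *Gria3*, beside 4.20%. Among P5 arrays with a high Y-linked level the difference was 0.36 and among those with a low level 1.34. In replicates 1 and 2 it was 0.94 and in replicates 3 to 5 it was 0.51.

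**Figure D1:**
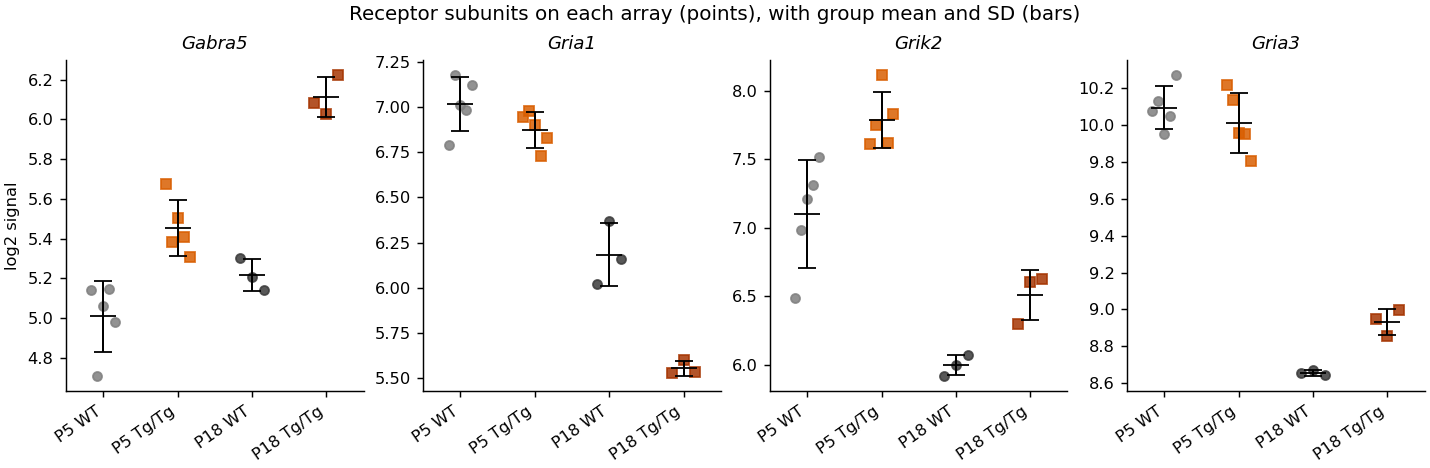
Log2 signal (vertical axes, each with its own range) of *Gabra5*, *Gria1*, *Grik2* and *Gria3* on each array, as points by group (5 arrays per P5 group, 3 per P18 group), with the group mean as a wide tick and the standard deviation as bars. *Gabra5* and *Grik2* are higher on all Tg/Tg arrays than on all WT arrays of the same age, *Gria1* is lower on all Tg/Tg arrays at P18 and overlaps at P5, and *Gria3* does not overlap at P18.

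The other AMPA receptor genes *Gria2*, *Gria3* and *Gria4* were not called with genotype. At P5 all 4 AMPA genes had negative changes, from -0.33 for *Gria2* (adjusted p = 0.336) and -0.27 for *Gria4* (adjusted p = 0.163) to -0.08 for *Gria3*. The largest of these, *Gria2*, had P5 log2 signals of 7.43, 7.10, 7.26, 6.84 and 7.23 in Tg1MDW/1MDW and 7.16, 7.72, 6.90, 7.79 and 7.92 in WT. The groups overlapped, with 1 Tg1MDW/1MDW array below all WT arrays and 3 WT arrays above all Tg1MDW/1MDW arrays. *Gria4* was called lower when P5 WT replicate 1 was left out (log2 change -0.33, adjusted p = 0.0383). At P18 *Gria2* and *Gria4* differed by 0.04 and 0.02. *Gria3* was at 8.95, 8.86 and 8.99 in Tg1MDW/1MDW and 8.65, 8.67 and 8.64 in WT, groups that did not overlap, with a log2 change of 0.28 that was not called (adjusted p = 0.413).

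The remaining kainate genes *Grik1*, *Grik3*, *Grik4* and *Grik5* changed by -0.13 to 0.11 at either age. The NMDA receptor genes of the set encode GluN2 subunits, which bind glutamate, and GluN3 subunits, which bind glycine. Among them, *Grin2a* had changes of -0.29 and -0.39 at P5 and P18, and *Grin2c* of 0.29 and -0.14. *Grin2b*, *Grin2d*, *Grin3a* and *Grin3b* had changes of -0.03 to 0.04 at P5 and -0.27 to 0.18 at P18. The metabotropic receptors *Grm2* and *Grm3*, which lower cyclic AMP, had -0.15 and -0.13 at P18. *Grm5*, which acts through phospholipase C, had 0.21 at P5 and -0.21 at P18, and *Grm6*, *Grm7* and *Grm8* had 0.04, 0.10 and 0.23 at P18. None of these genes was called.

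Among the other GABA-A genes, the largest fall at P18 was that of *Gabrd*, whose delta subunit forms extrasynaptic channels. Its log2 signals were 5.47, 5.41 and 5.31 in Tg1MDW/1MDW and 6.07, 5.78 and 5.56 in WT, without overlap, and the log2 change of -0.41 was not called (adjusted p = 0.505) in the fit or in any of 26 alternatives. The alpha genes *Gabra2*, *Gabra3* and *Gabra4* had changes of -0.19 to 0.09 at both ages except for -0.20 of *Gabra3* at P18. The beta genes *Gabrb1* and *Gabrb2*, the gamma genes *Gabrg1* and *Gabrg3*, *Gabre*, *Gabrp* and *Gabrq* had -0.27 to 0.13 at P18, and the rho genes *Gabrr1*, *Gabrr2* and *Gabrr3*, known from retinal neurons, had -0.19 to 0.04. *Gabrg1* was below the dim line in all 4 groups, *Gabrr3* in 3, *Grin2a* in both P18 groups and *Gabrq* in P18 Tg1MDW/1MDW. Their signal there may lie near background. The 3 probesets of *Gabrb2* had changes of 0.04 to 0.29 at P5 and -0.38 to -0.27 at P18.

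**Figure D2:**
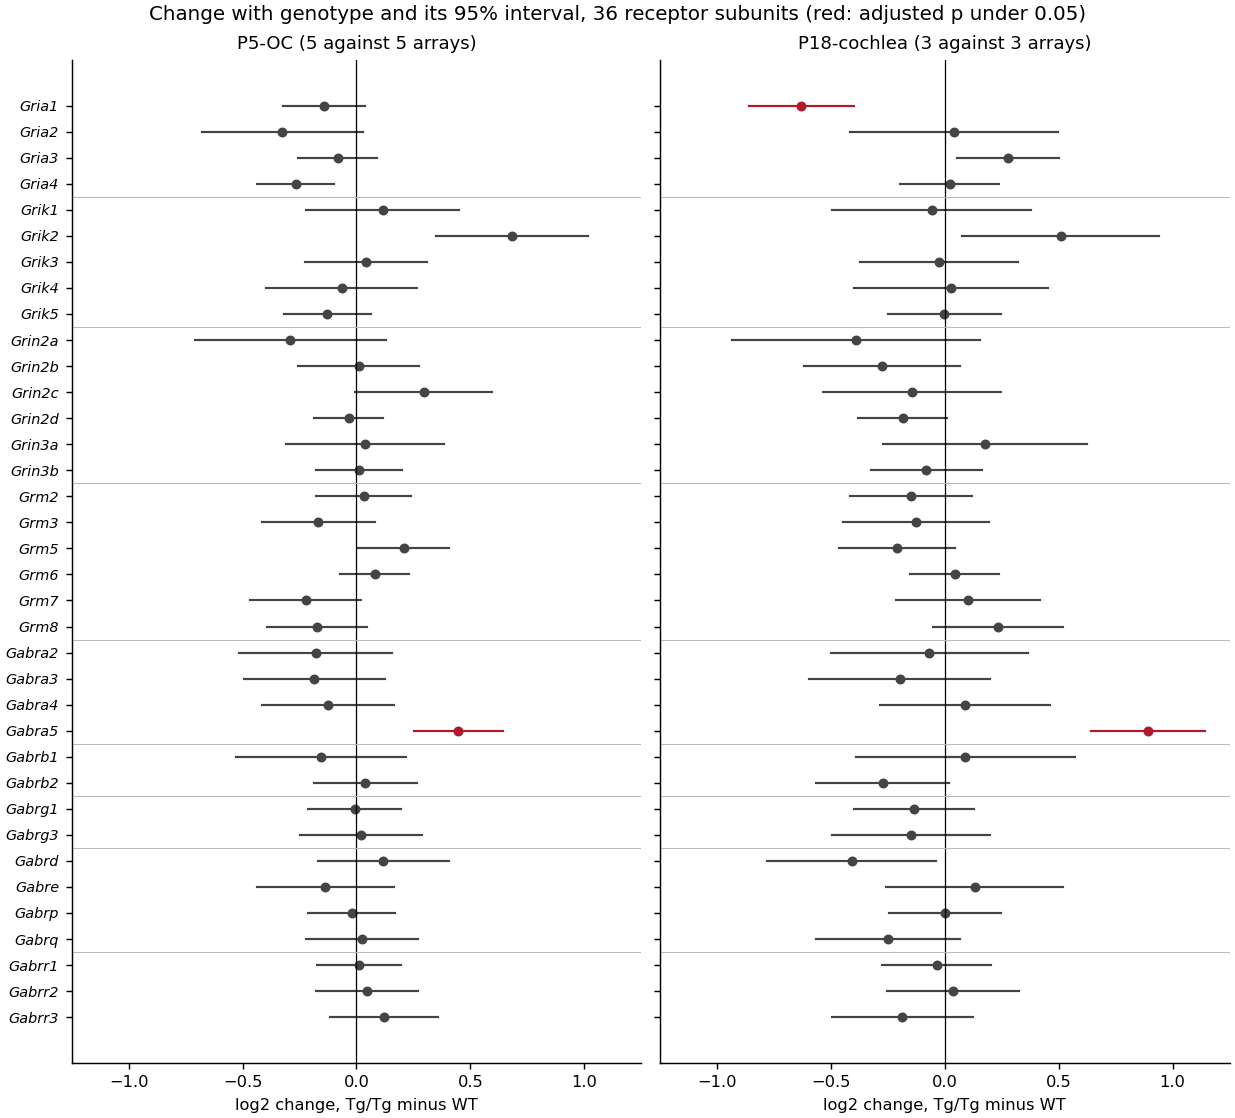
Log2 change of Tg/Tg minus WT (horizontal axes) for each of the 36 receptor genes in P5-OC (left) and P18-cochlea (right), with the 95% interval as a line, grouped by family from AMPA at the top to GABA-A rho at the bottom. *Gabra5* at both ages and *Gria1* at P18 are drawn in red as called, and the other intervals lie between -0.93 and 1.02.

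Counting groups without any overlap gave 2 genes at P5, *Gabra5* and *Grik2*, beside 1.67% of all probesets. In P18-cochlea it gave 16 of 36, beside 27.6% of all probesets. Of these 16, 6 were higher in Tg1MDW/1MDW (*Gabra5*, *Gria3*, *Grik2*, *Grin3a*, *Grm7* and *Grm8*) and 10 lower (*Gria1*, *Grin2a*, *Grin2b*, *Grm2*, *Grm3*, *Grm5*, *Gabra3*, *Gabrb2*, *Gabrd* and *Gabrq*). No receptor gene was called for the difference between the genotype effects at P18 and P5, beside 0.596% of all probesets. By limma's test, 7 had an unadjusted p under 0.05 for it, beside 14.3% of all probesets, and with array weights 3 were called, beside 9.30%, *Gabra5* (0.47, adjusted p = 0.0324), *Gria1* (-0.50, adjusted p = 0.0234) and *Grm5* (-0.40, adjusted p = 0.0446).

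Markers of other cell types differed between the genotypes on the same arrays. Of 14 cerebellar granule cell markers, 6 were called lower in Tg1MDW/1MDW at P18 and none at P5. They included *Gabra6*, the alpha-6 subunit of granule cells (log2 change -1.87), and *Neurod1* (-1.82), whereas *Grm4* had -0.50 (adjusted p = 0.307). The mean of the list was 7.09 to 7.11 on P18 WT arrays and 6.55 to 6.61 on P18 Tg1MDW/1MDW arrays, with no marker of the list below the dim line in P18 WT and 2 below it in P18 Tg1MDW/1MDW. Of 8 Purkinje cell markers 1, *Rgs8*, was called lower at P18 (list mean 6.62 to 6.69 in WT and 6.18 to 6.31 in Tg1MDW/1MDW), and of 11 brain neuron markers also 1, *Slc12a5* (5.87 to 5.94 and 5.70 to 5.72). Of 9 skeletal muscle markers, 7 were called higher in Tg1MDW/1MDW at P18 (list mean 8.0 to 8.13 against 6.0 to 6.10 in WT). In P5-OC, 12 of 13 Schwann cell and myelin markers were called lower (7.54 to 8.09 against 9.32 to 9.47), and at P18 1, *Pmp2*, was called higher (log2 change 1.57). No hair cell marker of 14, spiral ganglion marker of 17, CNS oligodendrocyte marker of 7 or astrocyte marker of 6 was called with genotype at either age. At P5, however, 14 of the 17 spiral ganglion markers had negative changes, with a median log2 change of -0.29 against -0.01 over all probesets, and the list mean was 8.15 to 8.66 in WT and 7.93 to 8.37 in Tg1MDW/1MDW, beside the negative changes of the 4 AMPA genes at that age. At P18, negative changes were found for 8 of 8 Purkinje cell, 10 of 11 brain neuron and 11 of 14 granule cell markers. Their median log2 changes were -0.40, -0.13 and -0.36, against -0.02 over all probesets. For hair cell and spiral ganglion markers, 8 of 14 and 10 of 17 were negative at P18. The part of these lists in the changes of *Gabra5*, *Gria1* and the other receptor genes was not tested.

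**Figure D3:**
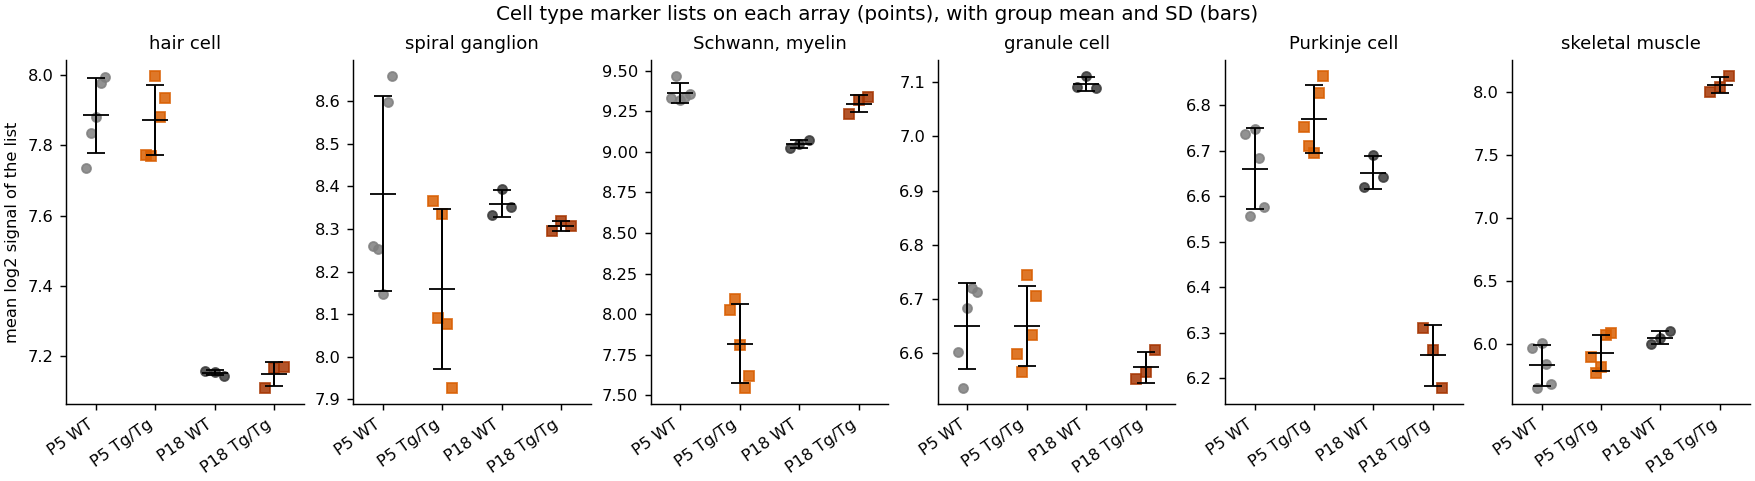
Mean log2 signal of 6 cell type marker lists (vertical axes, each with its own range) on each array, as points by group, with group mean and standard deviation as bars. Granule and Purkinje cell lists are lower and the skeletal muscle list higher in P18 Tg/Tg, the Schwann and myelin list is lower in P5 Tg/Tg, and the hair cell list is lower in both P18 groups than in both P5 groups.

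Between P5-OC and P18-cochlea, receptor genes fell more often than they rose, and most of the kainate, AMPA and NMDA genes were among those that fell. In WT 18 of 36 were called lower at P18, beside 30.2% of all probesets, and 4 were called higher, beside 19.8%. In Tg1MDW/1MDW 19 were called lower, beside 33.0%, and 4 higher, beside 21.1%. In both genotypes 16 were called lower and 3 higher, none was called in opposite directions, and 10 were called in neither. The matching shares of all probesets were not counted, so these joint counts describe the receptor genes only. The median log2 change of the set was -0.35 in WT and -0.43 in Tg1MDW/1MDW, against -0.06 and -0.11 over all probesets.

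This split depends on the scaling of the arrays, since array medians were 6.33 to 6.63 and differed with age. Quantile normalization moved the median of all probesets from -0.06 to 0.09 in WT and from -0.11 to 0.05 in Tg1MDW/1MDW, and gave 13 lower and 12 higher receptor genes in WT, beside 25.3% and 32.3% of all probesets, and 15 lower and 10 higher in Tg1MDW/1MDW, beside 24.1% and 28.6%. Centring each array on its median moved it to 0.13 and 0.11, and gave 15 lower and 9 higher in WT, beside 21.3% and 34.3%, and 16 lower and 7 higher in Tg1MDW/1MDW, beside 19.7% and 34.3%. Under these scalings the medians of the set were -0.14 and -0.15 in WT and -0.15 and -0.21 in Tg1MDW/1MDW, below those of all probesets in each case.

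No called gene turned to a call in the other direction, but small changes gained or lost a call under 1 or both of these scalings. In WT the calls of 5 genes that fell were lost (*Gabra3*, *Gabrb1*, *Gabrg3*, *Grik4* and *Grin2d*), and 8 genes were called higher in addition (*Gabra2*, *Gabra5*, *Gabrd*, *Gabrr2*, *Gabrr3*, *Grm2*, *Grm5* and *Grm6*). In Tg1MDW/1MDW the calls of 5 genes that fell were lost (*Gabra3*, *Gabrb2*, *Gabrq*, *Grin3a* and *Grm5*), and 6 were called higher in addition (*Gabra2*, *Gabrr2*, *Grin2c*, *Grm2*, *Grm6* and *Grm7*). The calls given for single genes below are those without these scalings.

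A fold change of at least 2 in both genotypes was reached by 9 genes that fell, beside 9.13% of all probesets, and by 1 that rose, beside 4.65%. The genes that fell were *Gria3*, *Grik1*, *Grik2*, *Grik3*, *Grik5*, *Grin2a*, *Grm3*, *Gabra4* and *Gabre*, and the gene that rose was *Gabrp*. All 10 kept their calls in both genotypes in the 24 or 25 alternatives that tested them. The fold fell short of 2 in 1 genotype for *Grik2*, *Gria3*, *Grik5*, *Gabra4* or *Gabre* in some of these, with *Gabre* in Tg1MDW/1MDW lowest (log2 change -0.72 after quantile normalization).

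*Gabrp* encodes the pi subunit of GABA-A receptors, known from epithelial tissues such as the uterus. Its log2 signals in P18-cochlea were 7.47, 7.55 and 7.56 in WT and 7.46, 7.73 and 7.40 in Tg1MDW/1MDW. In P5-OC they were 5.02, 4.80, 5.15, 4.93 and 4.80 in WT and 4.85, 4.89, 4.76, 5.09 and 5.02 in Tg1MDW/1MDW. Every P18 array was more than 2 log2 units above every P5 array. The P5 signals, 4.76 to 5.15, lay above the dim line of 4.54 but below all array medians (6.33 to 6.63). The fold was thus measured from a low signal. The signal was 6.0-fold higher in WT (log2 change 2.59, adjusted p = 1.59e-11) and 6.10-fold higher in Tg1MDW/1MDW (2.61, adjusted p = 1.63e-11), and genotype changed it by -0.02 at P5 and 0.00 at P18.

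Among AMPA genes, *Gria3*, for the GluA3 subunit, was at 10.08, 10.13, 9.95, 10.05 and 10.27 in P5 WT and at 10.22, 10.14, 9.96, 9.95 and 9.80 in P5 Tg1MDW/1MDW. In P18-cochlea it was at 8.65, 8.67 and 8.64 in WT and at 8.95, 8.86 and 8.99 in Tg1MDW/1MDW. All P18 arrays were below all P5 arrays, with log2 changes of -1.44 in WT (adjusted p = 3.64e-09) and -1.08 in Tg1MDW/1MDW (adjusted p = 1.1e-07). *Gria1* fell, by log2 changes of -0.83 in WT and -1.32 in Tg1MDW/1MDW, and *Gria4* fell, by log2 changes of -0.97 and -0.68. *Gria2*, whose subunit makes the channel impermeable to calcium, had changes of -0.21 (adjusted p = 0.393) and 0.16 (adjusted p = 0.513), with P18 log2 signals of 7.23 to 7.38 within its P5 range.

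All 5 kainate genes were called lower in WT, and 4 in Tg1MDW/1MDW. *Grik1*, for GluK1, was at 6.22, 6.29, 6.77, 6.46 and 6.74 in P5 WT, at 6.28, 6.18, 6.98, 6.78 and 6.83 in P5 Tg1MDW/1MDW, at 5.08, 5.20 and 4.78 in P18 WT and at 4.92, 4.93 and 5.04 in P18 Tg1MDW/1MDW. No P18 array reached the lowest P5 array, and the log2 changes were -1.47 in WT and -1.65 in Tg1MDW/1MDW (adjusted p = 5.42e-06 and 1.75e-06).
*Grik3*, for GluK3, was at 7.46, 7.96, 7.92, 8.09 and 8.21 in P5 WT, at 7.90, 7.75, 8.28, 8.06 and 7.86 in P5 Tg1MDW/1MDW, at 6.79, 6.54 and 6.65 in P18 WT and at 6.62, 6.60 and 6.69 in P18 Tg1MDW/1MDW. It fell, by log2 changes of -1.26 and -1.33, again without overlap between the ages. *Grik5*, whose GluK5 subunit needs a GluK1 to GluK3 partner to form a channel, was at 8.57, 8.64, 8.68, 8.86 and 8.94 in P5 WT, at 8.40, 8.57, 8.86, 8.66 and 8.55 in P5 Tg1MDW/1MDW, at 7.46, 7.49 and 7.48 in P18 WT and at 7.43, 7.43 and 7.56 in P18 Tg1MDW/1MDW. It fell, by log2 changes of -1.26 and -1.13, and the P18 arrays of both genotypes lay within a narrow range. *Grik2*, with the values per array given above, fell, by log2 changes of -1.1 in WT and -1.28 in Tg1MDW/1MDW. *Grik4*, the other subunit that needs a partner, fell by 0.53 in WT (adjusted p = 0.0227) and had -0.43 in Tg1MDW/1MDW (adjusted p = 0.0522).

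Among NMDA genes, *Grin2a*, for the GluN2A subunit, was at 6.04, 6.73, 6.83, 6.92 and 7.25 in P5 WT and at 6.17, 6.02, 6.89, 6.63 and 6.61 in P5 Tg1MDW/1MDW. In P18-cochlea it was at 4.37, 4.56 and 4.35 in WT and at 3.89, 4.27 and 3.96 in Tg1MDW/1MDW, where both group means were below the dim line. The measured log2 changes were -2.33 and -2.43 (adjusted p = 4.12e-07 and 2.78e-07), with both P18 means below the dim line. Signal there may lie near background. *Grin2b* fell, by log2 changes of -0.77 in WT and -1.05 in Tg1MDW/1MDW, *Grin3a* with changes of -0.79 and -0.65, and *Grin2d* with -0.39 and -0.54. *Grin2c* rose by 0.51 in WT (adjusted p = 0.0173) and had 0.07 in Tg1MDW/1MDW (adjusted p = 0.751), a difference between genotypes of -0.44 that was not called (adjusted p = 0.399). After quantile normalization *Grin2c* was called in both, with 0.74 and 0.40 (adjusted p = 0.0351 in Tg1MDW/1MDW). *Grin3b* was not called in either genotype.

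Of the metabotropic receptors, *Grm3* fell and *Grm8* rose in both genotypes. *Grm3* was at 7.10, 6.77, 6.74, 6.69 and 7.11 in P5 WT, at 6.84, 6.94, 6.89, 6.39 and 6.52 in P5 Tg1MDW/1MDW, at 5.44, 5.26 and 5.31 in P18 WT and at 5.25, 5.12 and 5.25 in P18 Tg1MDW/1MDW. The ages did not overlap, and the log2 changes were -1.55 and -1.51 (adjusted p = 1.03e-07 and 1.51e-07). *Grm8*, a presynaptic receptor, rose by 0.62 in WT and by 1.03 in Tg1MDW/1MDW. *Grm5* had 0.14 in WT (adjusted p = 0.317) and fell by 0.28 in Tg1MDW/1MDW (adjusted p = 0.0385). The Tg1MDW/1MDW call of *Grm5* was lost after quantile normalization (0.11, adjusted p = 0.357) and centring (-0.06, adjusted p = 0.672), where WT was called higher (0.43 and 0.33). *Grm2*, *Grm6* and *Grm7* were not called in either genotype.

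**Figure D4:**
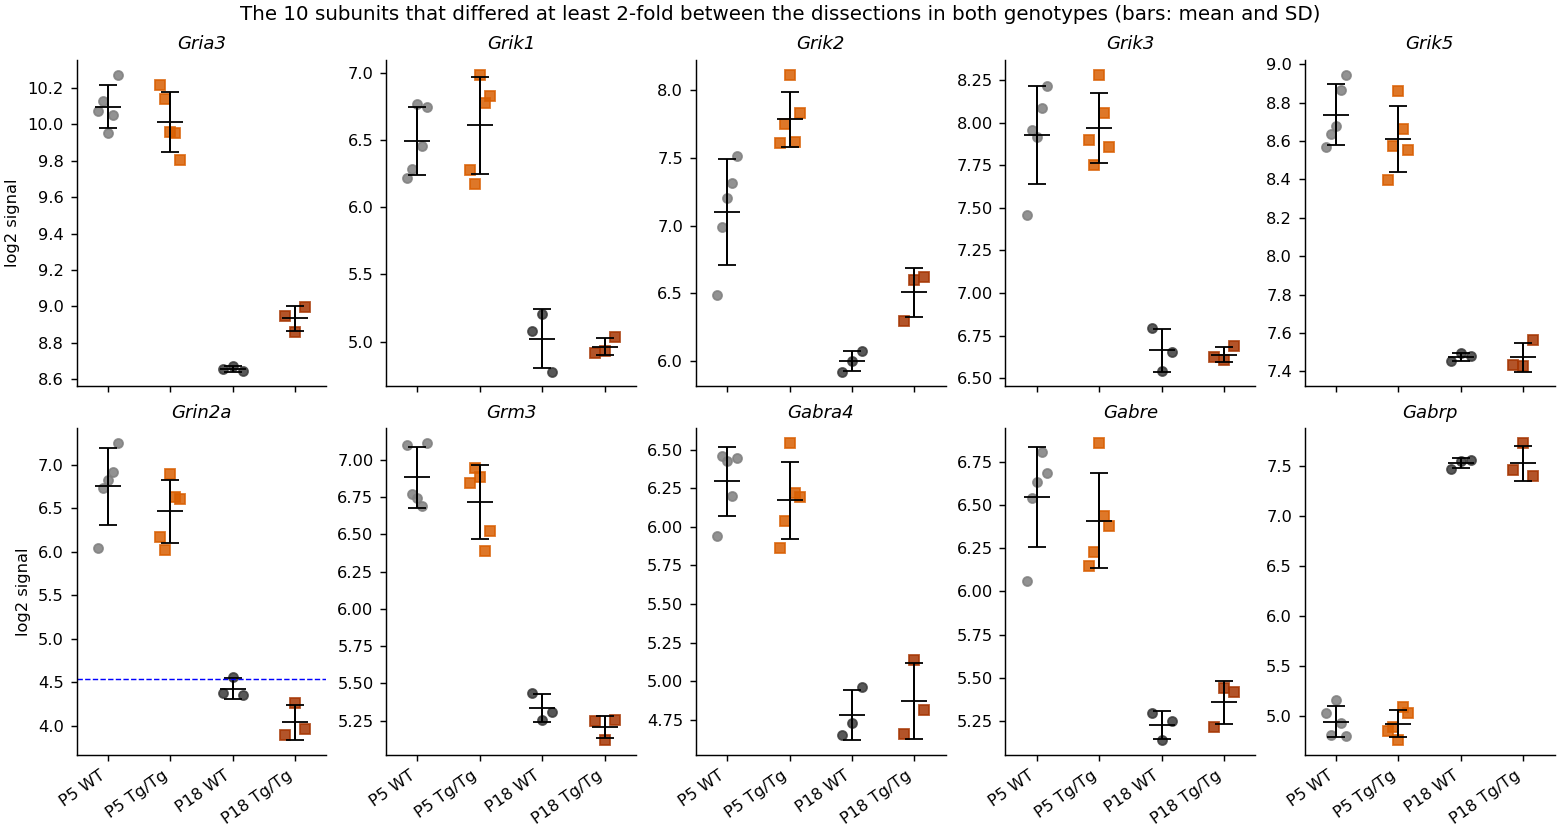
Log2 signal (vertical axes, each with its own range) on each array of the 10 receptor genes whose signal differed at least 2-fold between P5-OC and P18-cochlea in both genotypes, as points by group, with group mean and standard deviation as bars. Only *Gabrp* is higher at P18, and the dashed line in the *Grin2a* panel is the dim line at 4.54, below which both P18 group means of that gene lie.

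Among GABA-A genes, *Gabra4*, for the alpha-4 subunit, was at 5.94, 6.46, 6.42, 6.20 and 6.45 in P5 WT, at 5.86, 6.04, 6.54, 6.22 and 6.19 in P5 Tg1MDW/1MDW, at 4.65, 4.73 and 4.96 in P18 WT and at 4.66, 5.14 and 4.81 in P18 Tg1MDW/1MDW. It fell, by log2 changes of -1.51 in WT and -1.30 in Tg1MDW/1MDW (adjusted p = 7.64e-07 and 4.23e-06). *Gabre*, for the epsilon subunit, was at 6.06, 6.54, 6.63, 6.81 and 6.69 in P5 WT, at 6.15, 6.23, 6.86, 6.44 and 6.38 in P5 Tg1MDW/1MDW, at 5.30, 5.14 and 5.25 in P18 WT and at 5.21, 5.44 and 5.42 in P18 Tg1MDW/1MDW. It fell, by log2 changes of -1.32 and -1.05 (adjusted p = 5.17e-06 and 5.44e-05), and neither gene's ages overlapped. *Gabra3* fell, by log2 changes of -0.63 and -0.64, and *Gabrg3* with -0.59 and -0.76. *Gabrb1* fell by 0.68 in WT, and *Gabrb2* and *Gabrq* fell, by log2 changes of -0.31 and -0.58 in Tg1MDW/1MDW. *Gabrr1* rose by 0.39 and by 0.35, and *Gabra5* rose by 0.66 in Tg1MDW/1MDW (adjusted p = 7.76e-05) and had 0.21 in WT (adjusted p = 0.114). In WT *Gabra5* was called higher after quantile normalization (0.50, adjusted p = 0.00132) and centring (0.41, adjusted p = 0.00647). *Gabra2*, *Gabrg1*, *Gabrd*, *Gabrr2* and *Gabrr3* were not called in either genotype.

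GABA-A genes that are neighbours in the RefSeq gene order had unlike values. Between *Gabrr1* and *Gabrr2*, which are adjacent, the log2 changes in WT were 0.39 and -0.03. In the group of *Gabrg1*, *Gabra2*, *Gabra4* and *Gabrb1* they were 0.02, 0.21, -1.51 and -0.68, and in that of *Gabre*, *Gabra3* and *Gabrq* they were -1.32, -0.63 and -0.31. Differences between genes were not tested.

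**Figure D5:**
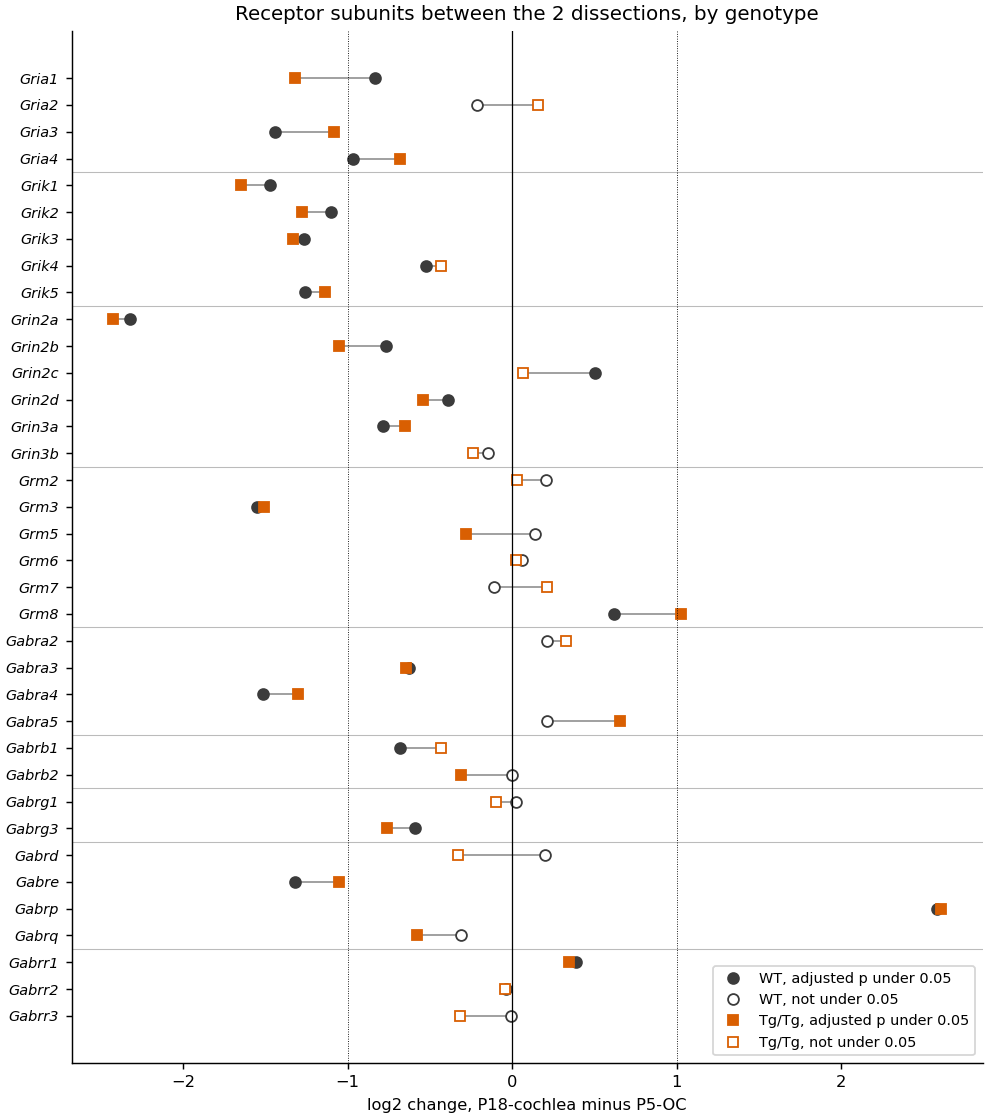
Log2 change of P18-cochlea minus P5-OC (horizontal axis) of each receptor gene in WT (circles) and Tg/Tg (squares), filled where the adjusted p is under 0.05, with dotted lines at a 2-fold change and families in the order AMPA, kainate, NMDA, metabotropic and GABA-A. *Grin2a* lies farthest to the left and *Gabrp* farthest to the right, and the 2 genotypes lie on the same side of 0 for every gene called in both.

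Cell type markers moved with age too. Their counts in WT stand beside 30.2% of all probesets called lower and 19.8% called higher, and are those without the scalings described above. Of 14 hair cell markers 11 were called lower and 1 higher in WT P18-cochlea, with a list mean of 7.73 to 7.99 at P5 and 7.14 to 7.16 at P18. Of 17 spiral ganglion markers 7 were lower and 7 higher (8.15 to 8.66 and 8.33 to 8.39), and of 14 granule cell markers 9 were higher and 2 lower. Of 7 CNS oligodendrocyte markers 6 were higher and 1, *Aspa* (log2 change -0.62), was lower (list mean 5.27 to 5.48 and 6.50 to 6.60). Of 6 astrocyte markers 3 were higher and 1 lower (7.97 to 8.19 and 8.83 to 8.93). The astrocyte markers ran from *Gfap*, the astrocyte filament gene (log2 change 3.06), to the glutamate transporter gene *Slc1a2* (-0.94). The part of these lists in the age changes of the receptor genes was not tested.

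The other genes of glutamate and GABA signalling followed no single direction with age. Of 73 listed genes 66 were measured. In WT 17 were called higher and 26 lower, beside 19.8% and 30.2% of all probesets. In Tg1MDW/1MDW they were 15 and 27, beside 21.1% and 33.0%. The counts for these lists are those without the scalings described above. With genotype none was called at P5, and 1 was called at P18, *Nptx1*, for a secreted pentraxin that clusters AMPA receptors, which fell by 0.56 (adjusted p = 0.0174). Genotype changes at P18 were negative for 8 of 8 GABA synthesis and transport genes and 25 of 33 auxiliary subunits and scaffolds. They were negative for 4 of 10 glutamate synthesis and transport genes, 7 of 12 GABA-A scaffolds and trafficking genes, and 3 of 3 other receptors. With age, 16 of the 33 glutamate receptor auxiliary subunits and scaffolds were lower and 4 higher in WT. *Neto2*, for an auxiliary subunit of kainate receptors, fell by 2.39, *Grip1*, for a scaffold of AMPA receptors, fell by 1.42, *Shank2* fell by 1.28 and *Olfm3* rose by 1.19.

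For glutamate synthesis and transport, 4 of 10 were higher and 4 lower in WT. *Glul*, for glutamine synthetase, rose by 1.40, and the glutamate uptake genes *Slc1a1*, *Slc1a2* and *Slc1a3* fell, with log2 changes of -0.92, -0.94 and -0.68. For GABA synthesis and transport, 2 of 8 were higher, the transporter genes *Slc6a13* (2.39) and *Slc6a12* (1.70), and 2 lower, *Aldh5a1* (-0.59) and *Abat* (-0.30), both for enzymes of GABA breakdown. Among GABA-A receptor scaffolds and trafficking genes, 6 of 12 were higher and 3 lower, with *Lhfpl3* at 1.81, *Trak2* at 1.36, *Gabarapl1* at 0.71 and *Trak1* at -0.38. Of 3 other receptors, the delta-type receptor *Grid1* fell by 1.76, the GABA-B subunit *Gabbr2* rose by 1.24 and its partner *Gabbr1* was not called.

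The spread of the receptor genes between arrays of a group was larger at P5 than at P18, with a median standard deviation of 0.21 in both P5 groups, 0.10 in P18 WT and 0.08 in P18 Tg1MDW/1MDW, against 0.18, 0.17, 0.09 and 0.09 over all probesets. At P5, replicates 1 and 2 stood apart from replicates 3 to 5 in the same direction in both genotypes for 8 receptor genes, beside 8.23% of all probesets. *Grin3a* and *Grin2b* were higher in replicates 1 and 2, and *Grik1*, *Grik4*, *Grin2a*, *Gabrb2*, *Gabre* and *Gabrg3* lower. *Grin3a* had log2 signals of 7.57 and 7.61 against 6.75, 7.04 and 7.13 in WT, and 7.53 and 7.64 against 6.98, 7.05 and 7.09 in Tg1MDW/1MDW. The labels name no batch for these replicates, and *Gabra5*, *Gria1* and *Grik2* are not among the 8.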

How the data were processed

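Total RNA was hybridised to 16 MoGene 1.0 arrays, 5 per genotype in P5-OC and 3 per genotype in P18-cochlea. The authors deposited log2 signals of 34760 probesets, between 2.09 and 13.72 with none missing. Their methods name limma, and the background correction and normalization are not given in the sources used here. No normalization was added. Samples were grouped by title, since other label fields conflict with the titles in age, tissue and genotype. The number of arrays limits the precision.

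All arrays entered 1 limma fit (version 3.58.1, R 4.3.3) of 4 group means with eBayes (12 residual and 3.23 prior degrees of freedom), without a filter. Contrasts were Tg1MDW/1MDW minus WT at each age, their difference, and P18-cochlea minus P5-OC in each genotype. The contrasts share arrays. Tests were two-sided, with Benjamini-Hochberg adjustment over all probesets. The fit was also run on simulated data with independent noise of equal spread in all groups. Such data cannot bear on the P5 replicate sets, the Y-linked level or the larger spread at P5.

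Probesets were named from the platform table (21640 with 1 symbol, 1321 with several, 11799 with none). The members, the lists and the tests were chosen with earlier results of these data known. Values per array are given for genes called with genotype, for the largest uncalled changes, and for genes called at 2-fold or more in both age contrasts. For lists, genes called with genotype and up to 4 with the smallest adjusted p with age in WT are named. Genes named beyond these, such as *Grin3a*, were chosen after their values were seen. Alternatives were a replicate block, a block of P5 replicates 3 to 5, a fit for each age, omission of dim probesets, single-symbol probesets, quantile normalization, centring, trend and robust options, array weights, the Y-linked level, another probeset for a gene, and each array left out. Figures were drawn with matplotlib.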

Additional observations from a re-analysis of the deposited data

Results flagged for a closer look

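*Gabrb1*, for a beta subunit of GABA-A receptors, had an array far from the others of its group. Its log2 signal was 5.83 on the array of P5 WT replicate 1 and 6.4 to 6.47 on the other P5 WT arrays, so that the gap made up 0.885 of the range. It was the single such case in 72 groups of 5 arrays, where chance gives about 1 in 20 groups, which is 3.6 of the 72. The gene was not called with genotype at either age.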

How the results depend on the processing

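No followed gene reversed its direction in any of 27 alternatives, 11 that leave out no array and 16 that leave out 1. Over 28 combinations of gene and contrast, 669 values kept their side of the threshold, 20 lost a call and 9 gained one. The deviations of same-numbered arrays correlated at -0.22 to 0.36 at P5 and 0.00 to 0.07 at P18. Differently numbered arrays were not compared, so whether replicate numbers pair the samples was not tested. With the replicate block, 2 genes were called higher at P5 in place of 1, *Grik2* joining *Gabra5* (adjusted p = 0.0352), and no followed call was lost. The block of P5 replicates 3 to 5 and single-symbol probesets also gave 2, and separate fits per age, centring and the Y-linked level gave 0. At P18 the genes called higher were 0 without the dimmest 50% of probesets, where 10 of 36 genes stay and *Gabra5* is not among them, and 3 with array weights (*Gria3* and *Grik2* joining). For the difference between the effects, array weights gave 1 higher and 2 lower in place of 0 and 0. With age, the dim filter gave 0 higher and 8 lower of the 10 genes that stay, in each genotype. Quantile normalization gave 12 (WT) and 10 (Tg1MDW/1MDW) higher, and centring 9 and 7 higher. Of the alternatives, shares of all probesets were counted only for the replicate block, quantile normalization, centring and array weights. Leaving out an array gave 0 to 2 genes higher and 0 to 1 lower at P5, and 0 to 1 lower at P18. Signals near the dim line limit *Grin2a*, *Gabrg1*, *Gabrr3* and *Gabrq*. The cause of these shifts was not tested.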
